A study of Mus musculus with 6 samples.

Results

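Cd83 and 8 genes of the MHC class II antigen presentation machinery (H2-Aa, H2-Ab1, H2-Eb1, Cd74, H2-DMa, H2-Oa, H2-Ob and Ciita) were followed in sorted regulatory T cells (Tregs) of NOD mice, which spontaneously become diabetic through autoimmunity. They are 9 of 18193 genes that had a probe set of their own, and were represented by 17 of the 45037 probe sets tested, each annotated to 1 of these symbols alone. The genes were chosen by their treated against untreated values on these same arrays, so the member differences below are a description and carry no test. All mice were female, carried the transgenic BDC2.5 T cell receptor against a pancreatic islet antigen, and expressed GFP from a Foxp3 reporter. The 3 treated mice were RAG1o/o, lacking the recombinase that assembles receptor genes, and received 37.5 µg of the anti-CD3 antibody KT3 intravenously, once daily for 5 days, with the first dose at 17 days of age. They were 29, 29 and 28 days old at the sort, given as 12, 12 and 11 days after treatment. The 3 untreated mice were RAG1+/o, aged 29, 28 and 28 days. From each spleen, CD4+ GFP+ cells were sorted after gating out B220, CD8a and CD11b/c, and each array held the amplified RNA of 1 mouse. Genotype and treatment differed together and cannot be told apart. In bulk RNA, fewer cells of a type and less RNA per cell cannot be told apart either.

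MHC class II molecules present peptides from endocytosed protein to CD4+ T cells. In the mouse they are made mainly by B cells, dendritic cells and macrophages, while mouse T cells, unlike activated human T cells, make little of them. Ciita encodes the coactivator that switches the class II genes on, H2-Aa, H2-Ab1 and H2-Eb1 encode chains of the molecule itself, and Cd74 encodes the invariant chain that escorts it to endosomes. There H2-DM, of which H2-DMa is a subunit, loads peptide, and H2-DO, made of H2-Oa and H2-Ob, restrains H2-DM, mostly in B cells. Cd83 encodes a surface protein of activated dendritic cells, B cells and T cells that stabilises class II molecules at the membrane by opposing the ubiquitin ligase MARCH1, and Tregs are known to carry it.

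Class II genes are recognised by their promoters, where an X box and, downstream, a Y box (an inverted CCAAT motif) assemble the complex that recruits the Ciita protein. RefSeq promoter entries (build GRCm38.p6, from the C57BL/6J strain, not NOD) were found for H2-Oa, H2-DMa, H2-Ob, H2-Aa and H2-Eb1, all on chromosome 17. In the 250 bases upstream of the start, 4 of these 5 genes held an X box core, GCAAC, followed on the same strand by the Y box core, TGATTGG, with 23 to 26 letters between. These stretches are shown because members from different steps of the pathway share this layout. Capitals mark GCAAC and TGATTGG.

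H2-Oa, chr17:34092293-34092350, plus strand: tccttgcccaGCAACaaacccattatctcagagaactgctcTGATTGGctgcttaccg

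H2-Ob, chr17:34238808-34238862, plus strand: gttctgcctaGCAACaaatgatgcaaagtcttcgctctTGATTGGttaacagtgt

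H2-Aa, chr17:34287857-34287914, minus strand: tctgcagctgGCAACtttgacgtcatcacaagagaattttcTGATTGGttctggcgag

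H2-Eb1, chr17:34305766-34305822, plus strand: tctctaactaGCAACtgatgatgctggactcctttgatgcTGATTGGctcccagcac

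Searched on both strands of all 32851 promoter entries, GCAAC was found in 29.9% and TGATTGG in 7.23%. The ordered pair with 10 to 40 letters between was found in 0.256%. The letters and the spacing were set after these 4 stretches had been read. In the 2 entries of H2-DMa the pair was not found. A match describes letters in a window and does not show a working site.

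Probe set values are RMA intensities on a log2 scale, given as mean ± SD over 3 arrays per group unless stated. Levels of different probe sets are compared only to pick what is printed and to set Ciita and H2-Ea beside the array medians. Array medians lay between 6.41 and 6.53, and the small number of arrays limits precision. The sorted cells carried Treg transcripts on every array, with Foxp3 at 11.43, 11.46 and 12.44 in treated and 10.75, 9.95 and 11.07 in untreated replicates 1, 2 and 3. Untreated replicate 3 stood apart from the other arrays in transcripts of other cell types. Ms4a1, the B cell gene for CD20, measured 6.50, 6.66 and 6.30 in treated replicates 1, 2 and 3, against 12.95, 12.93 and 8.97 in the untreated ones. Ngp, a neutrophil granule gene, measured 14.56, 13.81 and 14.20 in treated and 14.27, 14.40 and 6.33 in untreated replicates. Member values are therefore given with and without that array, and how far RNA of other cells contributed to them was not tested. With limma and Benjamini-Hochberg adjustment, 0 of the 45037 probe sets passed an adjusted p of 0.05 in either direction, a share of 0.00%, and 0 of the 17 member probe sets were among them. At an unadjusted p under 0.05 there were 1350 lower (3.00%) and 687 higher (1.53%) probe sets in treated cells.

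Cd83 lay below every untreated value in all treated arrays, and untreated replicate 3 was no exception. It measured 7.15, 7.0 and 7.74 in treated replicates 1, 2 and 3, against 9.0, 8.63 and 8.79 in the untreated replicates. The groups did not overlap, and the untreated arrays differed little among themselves. The means were 7.30 ± 0.39 in treated and 8.81 ± 0.18 in untreated cells, a difference of −1.51, or 2.84-fold lower. Without untreated replicate 3 the difference was −1.52, and against that array alone it was −1.49. Over the settings in which it was recomputed it lay between −1.73 and −1.36, which leaves out array weights and another variance model. Only 1 probe set represented this gene.

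H2-Ob, the beta chain of H2-DO, was the other member whose groups did not overlap. It measured 8.92, 8.74 and 8.84 in treated replicates 1, 2 and 3, against 11.45, 12.02 and 9.72 in the untreated ones. The treated arrays were tightly grouped, whereas untreated replicate 3 lay between them and the other untreated arrays, as it did for Ms4a1. The difference was −2.23, or 4.69-fold lower, and −2.90 without untreated replicate 3 against −0.89 with that array alone. Only 1 probe set represented H2-Ob alone. Another, annotated to both H2-Ob and Gm20506 and so not counted, measured 6.05, 6.42 and 6.08 in treated replicates. In untreated replicates it measured 6.57, 6.70 and 6.61, again without overlap but with a smaller gap and no lower value in untreated replicate 3. All treated values below all untreated values were thus found for 2 of 17 member probe sets, Cd83 and H2-Ob. Among all probe sets this held for 5.02%, and nothing is read from the members' count since the same contrast chose them.

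**Figure D1:**
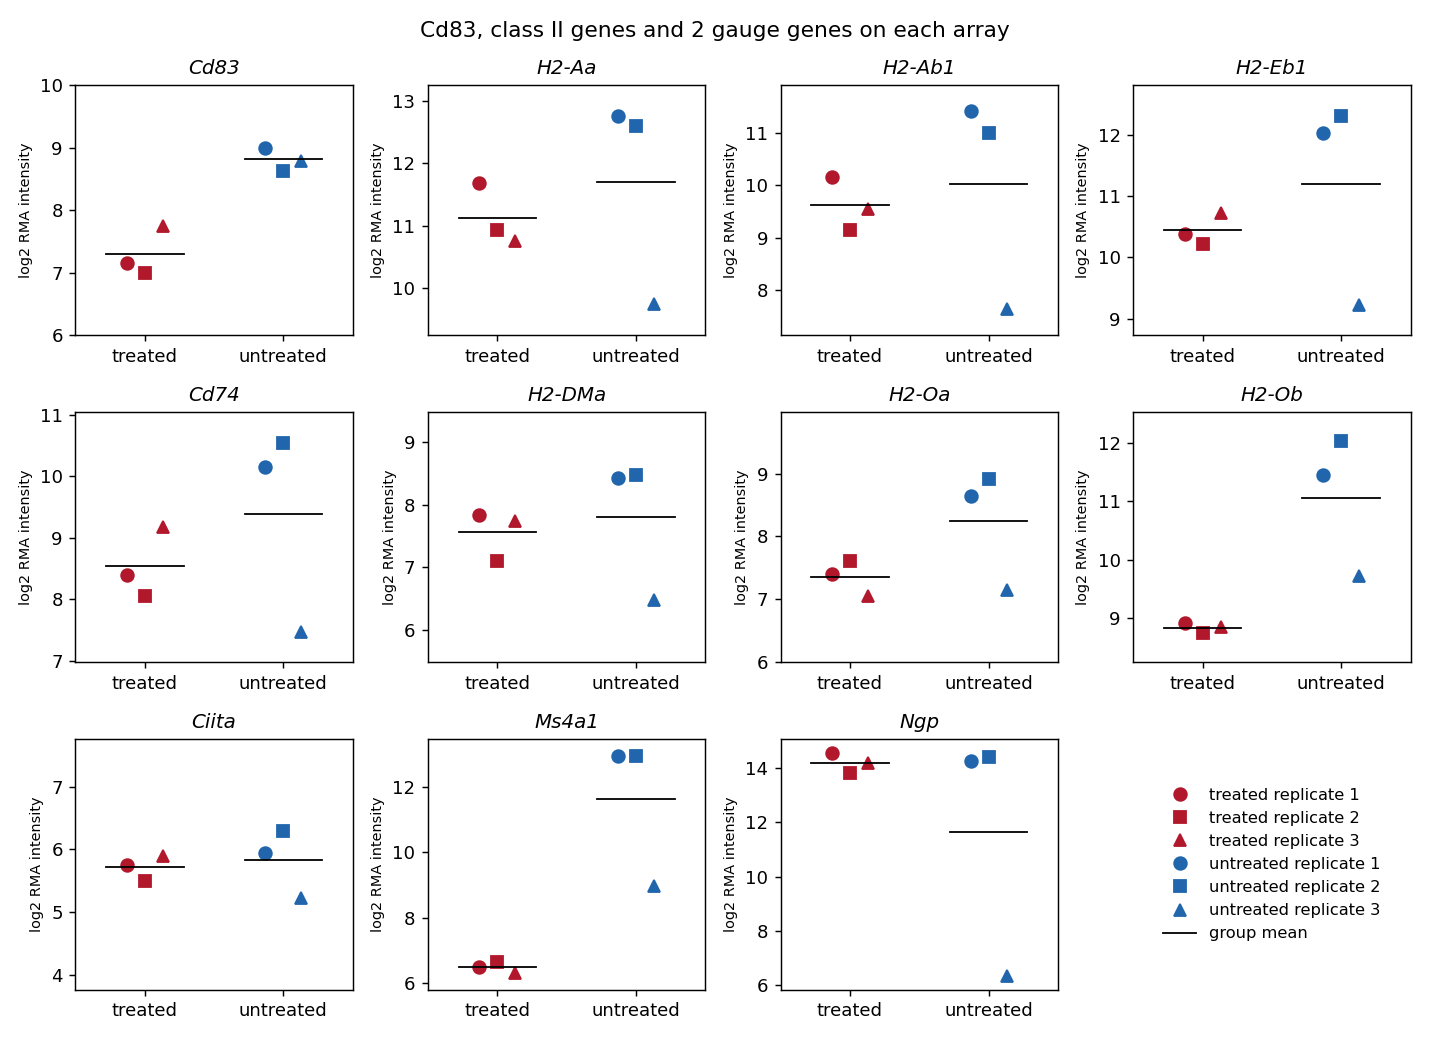
Log2 RMA intensity (vertical axes, each panel on its own scale) of Cd83, the 8 class II members and the gauge genes Ms4a1 (B cells) and Ngp (neutrophils) on each array, with treated arrays left of untreated ones. Each gene is shown by its brightest probe set, symbols mark replicate numbers and lines mark group means. Cd83 and H2-Ob have no overlap between groups, and in most other class II panels untreated replicate 3 (blue triangle) is the lowest point.

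H2-Oa, the alpha chain of H2-DO, separated the groups except for that array. It measured 7.40, 7.60 and 7.05 in treated replicates, against 8.64, 8.92 and 7.15 in untreated replicates 1, 2 and 3. Untreated replicate 3 fell inside the treated range. The difference was −0.89 with all arrays and −1.44 without untreated replicate 3.

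The chains of the class II molecule itself had their lowest value in untreated replicate 3 in 7 of 8 probe sets. The exception was an H2-Ab1 probe set, at 5.91 in treated replicate 2 and 5.97 in untreated replicate 3. H2-Ab1, encoding the A beta chain, measured 10.16, 9.15 and 9.54 in treated replicates 1, 2 and 3 by its brightest probe set, against 11.42, 11.00 and 7.63 in the untreated ones. The treated arrays thus lay below untreated replicates 1 and 2 and above untreated replicate 3. The difference was −0.40 with all arrays, −1.59 without untreated replicate 3 and +1.98 against that array alone. The other H2-Ab1 probe sets differed by −0.68 and −0.78 with all arrays.

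H2-Aa, encoding the A alpha chain, measured 11.69, 10.94 and 10.75 in treated replicates, against 12.75, 12.59 and 9.75 in untreated replicates 1, 2 and 3. Its 4 probe sets differed by −0.57 to −1.43 with all arrays, and all 4 had untreated replicate 3 as the lowest array. Without that array they differed by −1.55 to −2.92, and against it alone by +1.01 to +1.55. H2-Eb1, encoding the E beta chain, measured 10.38, 10.22 and 10.72 in treated replicates, against 12.02, 12.31 and 9.23 in untreated ones. Its difference was −0.74 with all arrays, −1.72 without untreated replicate 3 and +1.21 against that array alone. All 4 H2-Aa probe sets and 2 of the 3 for H2-Ab1 carry the suffix x or s, which Affymetrix gives to probe sets whose probes can match several transcripts, so these values are uncertain. The class II alleles of NOD differ from those of other strains, and how well these probes match them was not tested.

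H2-Ea encodes the partner of the E beta chain, which NOD mice are known not to make. Its 3 probe sets differed by −0.08, +0.08 and +0.02. The brightest measured 9.11, 9.56 and 9.32 in treated and 9.32, 9.27 and 9.35 in untreated replicates, with no drop in untreated replicate 3. These values lie above every array median although the chain is not made in NOD mice, so that probe set is not taken to measure H2-Ea specifically. H2-Eb2, a further beta chain gene, measured 8.56, 9.04 and 8.28 in treated and 9.06, 9.74 and 8.50 in untreated replicates, with overlapping groups.

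Cd74, the invariant chain, measured 8.40, 8.05 and 9.18 in treated replicates 1, 2 and 3, against 10.14, 10.54 and 7.47 in untreated ones. It was ordered like the structural chains, with a difference of −0.84 with all arrays, −1.80 without untreated replicate 3 and +1.08 against it alone. H2-DMa was covered by 2 probe sets that disagreed. The one with the higher mean measured 7.84, 7.10 and 7.74 in treated and 8.43, 8.48 and 6.48 in untreated replicates. Its difference was −0.24 with all arrays, −0.90 without untreated replicate 3 and +1.09 against it alone. The other measured 6.90, 7.30 and 7.26 in treated and 6.99, 7.50 and 6.99 in untreated replicates. Its groups overlapped in part, also without untreated replicate 3, and its difference was −0.01.

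Ciita was dim, with 3 probe sets all between 4.41 and 6.29 and so below the median of every array. Its brightest probe set measured 5.75, 5.49 and 5.90 in treated and 5.95, 6.29 and 5.23 in untreated replicates. The differences of the 3 probe sets were −0.11, −0.29 and −0.34. Without untreated replicate 3 they were −0.41, −0.51 and −0.55. Values this dim limit a change in Ciita only weakly.

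Over the 16 class II member probe sets, leaving Cd83 aside, all 16 differences were below 0, with a median of −0.71 and a range of −2.23 to −0.01, beside a median of +0.05 over all probe sets, of which 18936 were below 0. The array medians of these probe sets, each centred on its own mean, were −0.07, −0.62 and −0.31 in treated replicates, against 1.27, 1.14 and −1.13 in untreated replicates 1, 2 and 3. Leaving out 1 array at a time moved the median of the differences by over 1.5 times in 3 cases. It was −1.50 without untreated replicate 3, −0.19 without untreated replicate 1 and −0.25 without untreated replicate 2. In these settings 0, 2 and 4 of the 16 differences were above 0. Without treated replicate 1, or with age as a covariate, 1 was. Against untreated replicate 3 alone the median turned to +0.86, with 15 of the 16 above 0, beside a median of +0.02 and 23647 of 45037 above 0 over all probe sets. Untreated replicate 3 was the lowest of the 6 arrays in 10 of the 16, beside 12.0% of all probe sets. Without untreated replicate 3, treated and untreated arrays did not overlap in 16 of the 17 member probe sets, with the treated ones lower, beside 10.6% of all probe sets. Cd83 and H2-Ob were the only members with every treated value below untreated replicate 3.

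**Figure D2:**
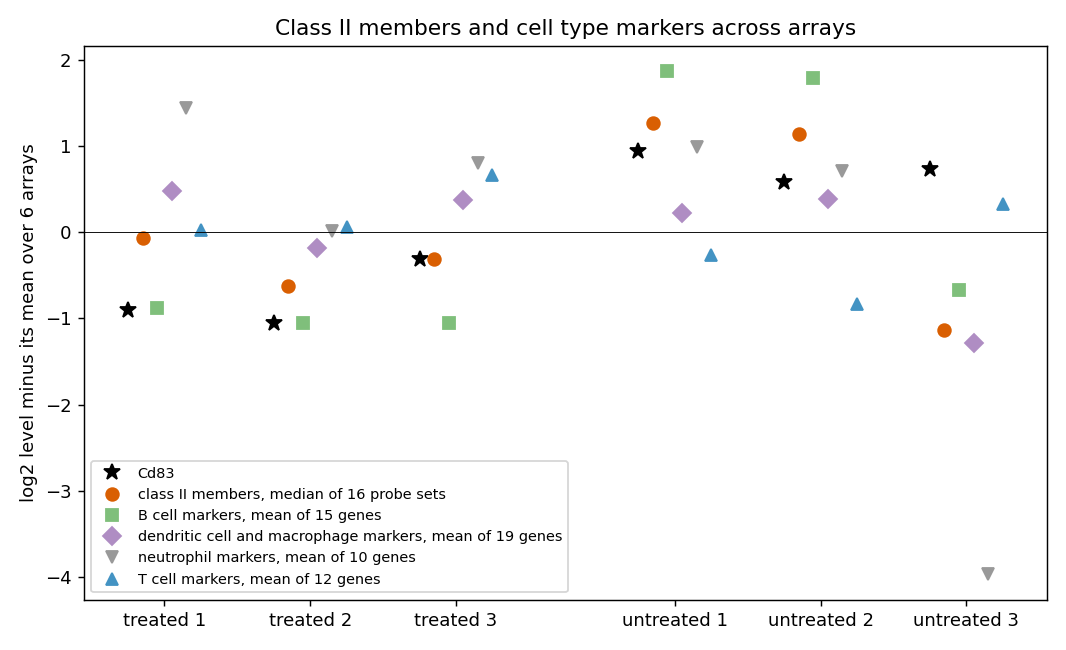
Log2 level minus its mean over the 6 arrays (vertical axis) for Cd83, for the class II members (median of 16 centred probe sets) and for the means of B cell, dendritic cell and macrophage, neutrophil and T cell marker genes, by array. The class II median is high in untreated replicates 1 and 2 (1.27 and 1.14), low in treated replicates (−0.07 to −0.62) and lowest in untreated replicate 3 (−1.13), while Cd83 stays high in untreated replicate 3.

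Markers of cells that present antigen were set beside these values. The mean over 15 B cell markers was 6.94, 6.76 and 6.76 in treated replicates 1, 2 and 3, against 9.69, 9.61 and 7.15 in the untreated ones. In this mean untreated replicate 3 was thus closer to the treated arrays than to the other untreated ones, though above every treated array. In 8 of the 27 B cell probe sets all treated values lay below all untreated ones, beside 5.02% of all probe sets. Those of Ms4a1 and Cd79b were among the 8. Of 27 B cell probe sets, 25 differences were below 0 and 2 were above it, and their median was −1.40. Of the genes with the highest means, Ralgps2 measured 9.17, 9.36 and 8.73 in treated and 10.95, 10.92 and 9.17 in untreated replicates, and Cd22 measured 8.72, 8.38 and 8.71 in treated and 11.22, 11.13 and 9.01 in untreated ones. Cd79b, a subunit of the B cell receptor, measured 7.39, 7.53 and 8.04 in treated and 11.59, 10.86 and 9.04 in untreated replicates. Ebf1 encodes a factor that defines the B cell lineage. By its probe set with the highest single value it measured 4.43, 3.29 and 3.33 in treated and 8.02, 7.18 and 3.5 in untreated replicates. That probe set differed by −2.55, the one with the highest mean by −1.47 and the others by −2.4, −1.36 and −0.07. Untreated replicate 3 lay within the treated range in those at −2.55, −2.4 and −1.36. It lay above all treated values in those at −1.47 and −0.07. Pax5, another factor that defines this lineage, had overlapping groups in both its probe sets, with differences of +0.34 and −0.15. The sort had gated out B220, and how completely this removed B cells was not tested.

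The mean over 19 dendritic cell and macrophage markers was 8.34, 7.68 and 8.24 in treated replicates, against 8.08, 8.25 and 6.57 in untreated replicates 1, 2 and 3. Here the treated arrays were close to untreated replicates 1 and 2, and untreated replicate 3 was the lowest. Lyz2, the lysozyme gene of myeloid cells, measured 13.42, 11.93 and 13.14 in treated and 12.68, 12.77 and 8.01 in untreated replicates. Csf1r, the macrophage growth factor receptor gene, measured 12.29, 11.18 and 11.96 in treated and 11.96, 12.66 and 8.27 in untreated ones. Fcgr3, encoding an Fc receptor, measured 11.17, 9.81 and 10.99 in treated and 10.49, 11.10 and 7.04 in untreated replicates. Of the genes that define dendritic cells, Itgax (CD11c) lay between 7.11 and 7.46 in treated and between 6.12 and 7.69 in untreated replicates. Flt3 lay between 7.16 and 7.34 in treated and between 6.63 and 7.23 in untreated ones. Xcr1, Batf3 and the brightest Zbtb46 probe set did not have their lowest value in untreated replicate 3. They measured 5.74, 6.55 and 7.03 there, within the treated range for Xcr1 and Zbtb46 and below it for Batf3. Over the whole list, untreated replicate 3 was the lowest array in 19 of 25 probe sets, beside 12.0% of all probe sets.

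The neutrophil list, whose cells are not known for class II expression, had array means of 11.91, 10.48 and 11.27 in treated and 11.45, 11.18 and 6.49 in untreated replicates. The T cell list ran the other way, at 11.34, 11.37 and 11.97 in treated and 11.05, 10.48 and 11.64 in untreated replicates, with Ikzf2, Ctla4 and Cd3d its genes of highest mean. In the median over the class II members, treated arrays lay below untreated replicates 1 and 2, as in the B cell list. They lay above untreated replicate 3, as in the dendritic cell and macrophage list and in the neutrophil list. H2-Ob and H2-Oa departed from this median, since untreated replicate 3 lay above all treated values of H2-Ob and within those of H2-Oa. They were not alone in this. Untreated replicate 3 also lay within the treated range in 1 probe set each of H2-Ab1 and H2-DMa (5.97 and 6.99). The same held for the Ciita probe sets at 5.41 and 4.49 in that array. The part of any of these cell types in the class II values was not tested.

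**Figure D3:**
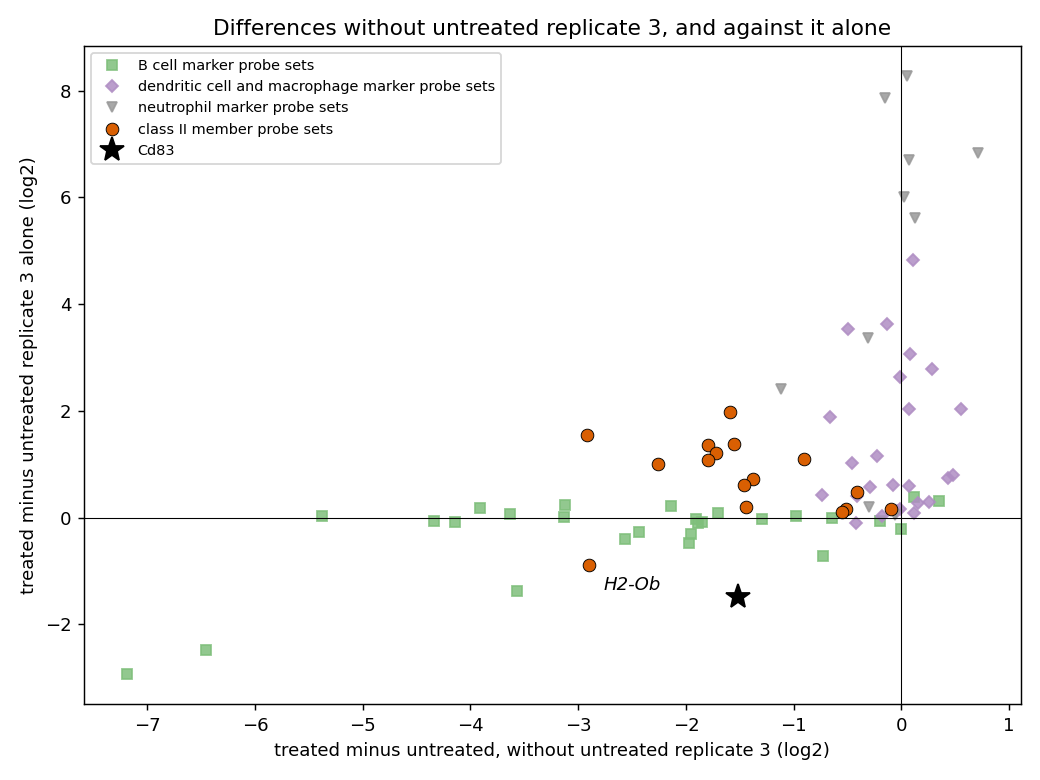
Treated minus untreated difference in log2 intensity without untreated replicate 3 (horizontal axis) and against untreated replicate 3 alone (vertical axis), 1 point per probe set, and both axes share the treated mean. Most B cell markers spread to the left near a vertical value of 0 while those of Ms4a1 lie lower, dendritic cell, macrophage and neutrophil markers spread upwards near a horizontal value of 0, most class II members lie to the upper left, and Cd83 lies at −1.52 and −1.49.

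The rest of the class II pathway was counted over 20 measured genes with 43 probe sets, from chains and loading factors to promoter proteins, proteases and ubiquitin ligases. None passed limma's adjusted p of 0.05 in either direction. At an unadjusted p under 0.05, 1 was higher and 3 were lower in treated cells, beside the 1.53% and 3.00% of all probe sets given above. The median difference was −0.08, beside +0.05 over all probe sets. H2-DMb2, a beta chain gene of H2-DM, had 2 of these 3 lower probe sets. By the first it measured 6.28, 5.54 and 5.97 in treated replicates, against 10.38, 10.98 and 6.12 in untreated replicates 1, 2 and 3. Untreated replicate 3 lay within the treated range. In the mean over B cell markers it lay at 7.15, above the treated 6.76 to 6.94, but single B cell genes went both ways. Untreated replicate 3 lay within the treated range for Spib and by some Ebf1 probe sets, and above it for Ms4a1 and Cd79b. The difference was −3.23 (limma adjusted p = 0.961) and −4.75 without untreated replicate 3 (limma adjusted p = 0.00648). In that fit 2 of the 43 probe sets passed as lower, both of H2-DMb2, and 0 as higher, beside 57 of all probe sets, or 0.127%. The third H2-DMb2 probe set differed by −0.30.

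The proteins that bind class II promoters are made in most cells, and their genes varied less. Nfyb, a subunit of the factor that binds the Y box, measured 10.10, 9.97 and 10.08 in treated and 10.38, 10.98 and 10.97 in untreated replicates (difference −0.73, limma adjusted p = 0.961). The X box proteins went both ways. Rfxap measured 8.52, 8.61 and 8.73 in treated and 8.14, 7.33 and 8.23 in untreated replicates, a difference of +0.72, while its other probe set differed by −0.51. Rfx5 differed by −0.48 and was 11.00 and 11.57 in untreated replicates 1 and 2 but 10.03 in untreated replicate 3. Creb1 differed by −0.57 by its probe set with the smallest p. Among proteases that prepare antigen and invariant chain, Ctsb differed by +0.42 by its probe set with the smallest p and by −0.58 by another, Ctsd by +0.57 and Ctss by −0.23. None of these passed the test.

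Marchf1, encoding the ligase MARCH1 that Cd83 opposes, had 3 probe sets with differences of −0.27, +0.20 and +0.01. The probe set with the highest mean measured 6.92, 5.78 and 7.26 in treated and 7.29, 7.36 and 5.28 in untreated replicates, again with the lowest value in untreated replicate 3. The related ligase gene Marchf8 measured 7.63, 6.42 and 6.06 in treated and 8.04, 8.98 and 5.08 in untreated replicates. Cd83 was not ordered like either of them. These were named for their link to Cd83 after their values were seen.

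Known regulators of Ciita were measured for 13 genes with 24 probe sets, and 0 passed the adjusted test. Of the 2 that were lower at an unadjusted p under 0.05, Spib, a B cell and plasmacytoid dendritic cell factor, measured 6.49, 6.38 and 6.41 in treated and 9.46, 9.65 and 6.42 in untreated replicates. Hdac2, a histone deacetylase gene, measured 7.74, 7.23 and 8.62 in treated and 8.76, 8.63 and 9.04 in untreated replicates. Its other probe sets differed by −0.68 and −0.27, with overlapping groups. Irf4 and Jak2 differed by −0.42 and −0.48 by their probe sets with the smallest p, and by +0.01 and +0.02 by their other ones. Among 13 class I pathway genes with 36 probe sets, 0 passed either. Nlrc5, which encodes the class I counterpart of Ciita, measured 9.54, 10.28 and 10.96 in treated and 9.08, 8.80 and 9.43 in untreated replicates (difference +1.16, limma adjusted p = 0.961). Canx, Pdia3 and Tapbpl, genes for chaperones of class I folding and loading, differed by −1.0, −0.32 and +0.59 by their probe sets with the smallest p. Their other probe sets differed by −0.45 and −0.30 for Canx, −0.84 for Pdia3 and +0.37 for Tapbpl. The class I list had a median difference of −0.04, and untreated replicate 3 was the lowest array in 0 of its 36 probe sets.

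The patterns most like that of Cd83 and of H2-Ab1 were sought among 15207 probe sets of other genes with a mean log2 of at least 7, by the root mean square distance between centred values over the 6 arrays. Nearest to Cd83 were Trat1 (distance 0.25), Adamts6 (0.30), Btg1, Myadm and Fcrl1 (0.31 each) and Ifit1bl1 (0.32). Trat1, encoding an adaptor of the T cell receptor complex, measured 9.07, 8.32 and 9.27 in treated and 10.13, 10.07 and 10.04 in untreated replicates. Fcrl1, a B cell surface receptor gene, measured 6.34, 5.74 and 6.81 in treated and 8.34, 8.28 and 7.60 in untreated replicates. The set thus held a gene of T cells and a gene of B cells. Nearest to H2-Ab1 were Pkig (0.14), Bcl11a (0.31), Napsa (0.36), Gab2 (0.39), Frmd4a (0.40) and Aqp1 (0.41), each with its lowest value in untreated replicate 3. Pkig, encoding an inhibitor of protein kinase A, measured 7.89, 6.85 and 7.42 in treated and 9.15, 9.12 and 5.52 in untreated replicates.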

How the data were processed

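RNA of sorted splenic Tregs was amplified in 2 rounds and hybridised to Affymetrix M430v2 arrays, per the labels' protocols. Per the labels, the authors ran RMA in GenePattern and deposited intensity values on a linear scale, running from 5.47 to 29584.9. No RMA version is given in the sources used here. RMA makes arrays alike in overall brightness, so a change common to most transcripts cannot be seen.

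Here log2 was taken, with no further normalization. Of 45101 probe sets, 64 controls were left out. Symbols came from the platform annotation, updated through gene identifiers for 34754 of 34945 probe sets with 1 symbol. Apart from the probe set shared by H2-Ob and Gm20506, no gene was named from the 932 with several symbols or the 9160 with none. Every probe set was fitted on its own with limma 3.58.1 in R 4.3.3 (lmFit, eBayes, Benjamini-Hochberg over all 45037), which was tested on simulated data. Each array held 1 mouse, so a p-value rests on mouse-to-mouse spread. The members and lists were chosen with earlier results of these data known. Named genes were all members, the gauges Ms4a1 and Ngp, those of smallest p in each pathway list (6 for class II, 4 for others) and the 6 nearest patterns. The 3 of highest mean in each marker list were named too, except in the neutrophil list, of which only Ngp was named. Ms4a1, Ngp, Cd79b, Foxp3, Pax5, Ebf1, Itgax and Flt3 were given as gauges or defining markers. Xcr1, Batf3 and Zbtb46 were added as defining markers after their values were seen. H2-Ea, H2-Eb2, Rfx5, Ctss, Marchf1 and Marchf8 were given for their place in the pathway, also after their values were seen. Plots used matplotlib 3.10.9 (Python 3.11.15).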

Additional observations from a re-analysis of the deposited data

How the results depend on the processing

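The Cd83 difference kept its sign in every setting that gave it a value, from −1.73 to −1.36 with 1 array left out, and was −1.51 with the replicate block. The class II median was between −1.50 and −0.19 with 1 array left out. With untreated replicate 3 as the only untreated array, a setting chosen after seeing the data, it reversed to 0.86. Member probe sets without overlap numbered 2 in every setting counted but 2, with 3 without treated replicate 2 and 16 without untreated replicate 3. Calls over all probe sets ranged from 0 to 57 lower and from 0 to 2 higher with 1 array left out, and those of other class II pathway probe sets from 0 to 2 lower. The 57, 2 and 2 arose without untreated replicate 3. Array weights gave 4 lower and 1 higher probe sets, and untreated replicate 3 as the only untreated array gave 2 higher. The cause was not tested. With the replicate number as a block 0 probe sets passed. Deviations of same-numbered arrays correlated at 0.45, 0.08 and 0.09 over probe sets for replicates 1, 2 and 3. Those of arrays with different numbers correlated between −0.38 and 0.17. Only the value of replicate 1 lay above that range, and the numbers were not taken to pair the mice. Quantile normalization, median centring, age, gene-level summaries, a filter on dim probe sets, another variance model and an adjusted p of 0.1 changed no count of calls. Non-overlap was not recomputed with a block, age, weights or another variance model, which leave the array values as they are.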

Other observations

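Genes for costimulatory ligands of antigen presenting cells had no common pattern. Of 11 measured genes with 18 probe sets, 10 probe sets had a difference above 0 and 8 below, with a median of +0.02, and 0 passed limma's adjusted p of 0.05. Cd86, a ligand of CD28 and, like Cd83, a surface marker of mature presenting cells, measured by the first of its probe sets 6.46, 5.48 and 6.17 in treated replicates 1, 2 and 3, against 6.83, 6.98 and 6.62 in the untreated ones. There the groups did not overlap, and untreated replicate 3 stayed above the treated arrays as for Cd83, but by the other probe set untreated replicate 3, at 7.08, lay within the treated range. Cd40, which B cells carry, measured by the first of its 3 probe sets 5.75, 5.11 and 6.07 in treated and 8.49, 8.69 and 5.70 in untreated replicates. There untreated replicate 3 lay among the treated arrays, while in the other probe sets it was 6.14, below all treated values, and 5.69, among them. Icam1 differed by +0.51 and Cd274, encoding the inhibitory ligand PD-L1, by −0.46.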
